A study of Saccharomyces cerevisiae with 6 samples.

Results

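The 9 yeast genes described here make, split or degrade glutamate, glutamine and γ-aminobutyric acid (GABA), or control such genes: GLN1, GLT1, GDH1, GDH2, GDH3, GAD1, UGA1, UGA2 and UGA3. They were chosen by name, and each had 1 probe among the 5561 genes that the array platform's annotation names. Messenger RNA of Saccharomyces cerevisiae grown in caffeine, a methylxanthine that inhibits TOR complex 1, was compared with RNA of untreated cells of the same genotype on 6 2-channel arrays. Every strain was W303a with TOR1 deleted from the chromosome and supplied from the plasmid p3HA-TOR1 with a haemagglutinin tag, so the controls shared the deletion and the plasmid. The plasmid copy was unaltered in the genotype called WT and held both I1954V and W2176R in that called mutant, and each genotype was measured at 3, 6 and 9 mM caffeine. There was 1 array for each genotype and dose, and hence no replicate of any dose. The labels do not say whether doses were separate cultures or whether transformants were single clones.

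Glutamate and glutamine are the donors of nearly all cellular nitrogen in yeast. Ammonium enters glutamate through the NADP-dependent dehydrogenases Gdh1 and Gdh3, and enters glutamine through the synthetase Gln1, while Glt1, the glutamate synthase, turns glutamine and 2-oxoglutarate back into glutamate. Gdh2, the NAD-dependent dehydrogenase, runs the other way and frees ammonium from glutamate. The GABA branch starts at Gad1, the glutamate decarboxylase; Uga1, a transaminase, and Uga2, the succinate semialdehyde dehydrogenase, then carry GABA to succinate, and Uga3 is the zinc-cluster activator of the UGA genes when GABA is present. Several of these genes are known targets of nitrogen catabolite repression, in which TOR complex 1 keeps GATA activators such as Gln3 inactive while good nitrogen sources last.

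The values are log2 ratios of caffeine to no caffeine, with the median named gene of each array set to 0, so 0 is the array's middle gene and 1 is a 2-fold excess over it. The sources used here do not give the sense of the ratio. Cy5, the caffeine channel, was set over Cy3; a ratio of the opposite sense would turn every sign. The deposited array medians lay between -0.22 and -0.54, so a centred value stands above the deposited one by that much. Bulk RNA was measured, and fewer cells of a kind cannot be told apart from less RNA per cell. TOR1 lay between -0.25 and -0.06 in WT and between 0.24 and 0.37 in the mutant, but no array compared the alleles directly, so it does not check the labels. Mating-type genes were looked at as a check of the labelled type a. Alpha-specific genes had medians of 0.94 to 1.26 on the WT arrays and 0.19 to 0.45 on those of the mutant. Those of a-specific genes were 0.00, 0.78 and -0.14 at 3, 6 and 9 mM in WT and 0.03, 0.47 and 0.25 in the mutant. In WT, 3 of 5 alpha-specific and 3 of 7 a-specific genes rose by the test described below, against 17.2% of all genes tested. In the mutant 1 of each set rose, against 12.1% of all genes. Ratios to the same strain carry no level, so they do not show which mating type is present; the part of these markers in the results below was not tested.

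Each gene tested had a value on all 6 arrays (5212 genes) and was fitted with limma as a line in dose through 0 for each genotype. The slope is in log2 units per mM. Its SE pools the spread of both genotypes around their lines (n = 3 arrays per genotype), drawn by limma towards a spread shared by all genes. The shared part counted as 9.69 prior degrees of freedom, against 4 residual ones of the gene itself. Genes were called where the adjusted p (Benjamini-Hochberg, over all genes) was under 0.05. Rose and fell below mean called. Of the genes described here, 8 were tested, since GDH3 had no value on the WT 3 mM array.

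In WT cells with caffeine, the genes of enzymes that make glutamine and degrade glutamate and GABA rose. Of the NADP-dependent dehydrogenases and glutamate synthase, GDH1 and GLT1 did not pass the test, and GDH3 rose in a wider fit. GLN1, GDH2, GAD1, UGA1 and UGA2 rose, by 4.57-fold to 15.2-fold over the median gene at 9 mM. None of the 8 fell (0 at an unadjusted p under 0.05, limma). Over all genes tested, 17.2% rose and 16.3% fell in WT. The median slope of the 8 was 0.34 per mM, against 0.00 over all genes.

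**Figure D1:**
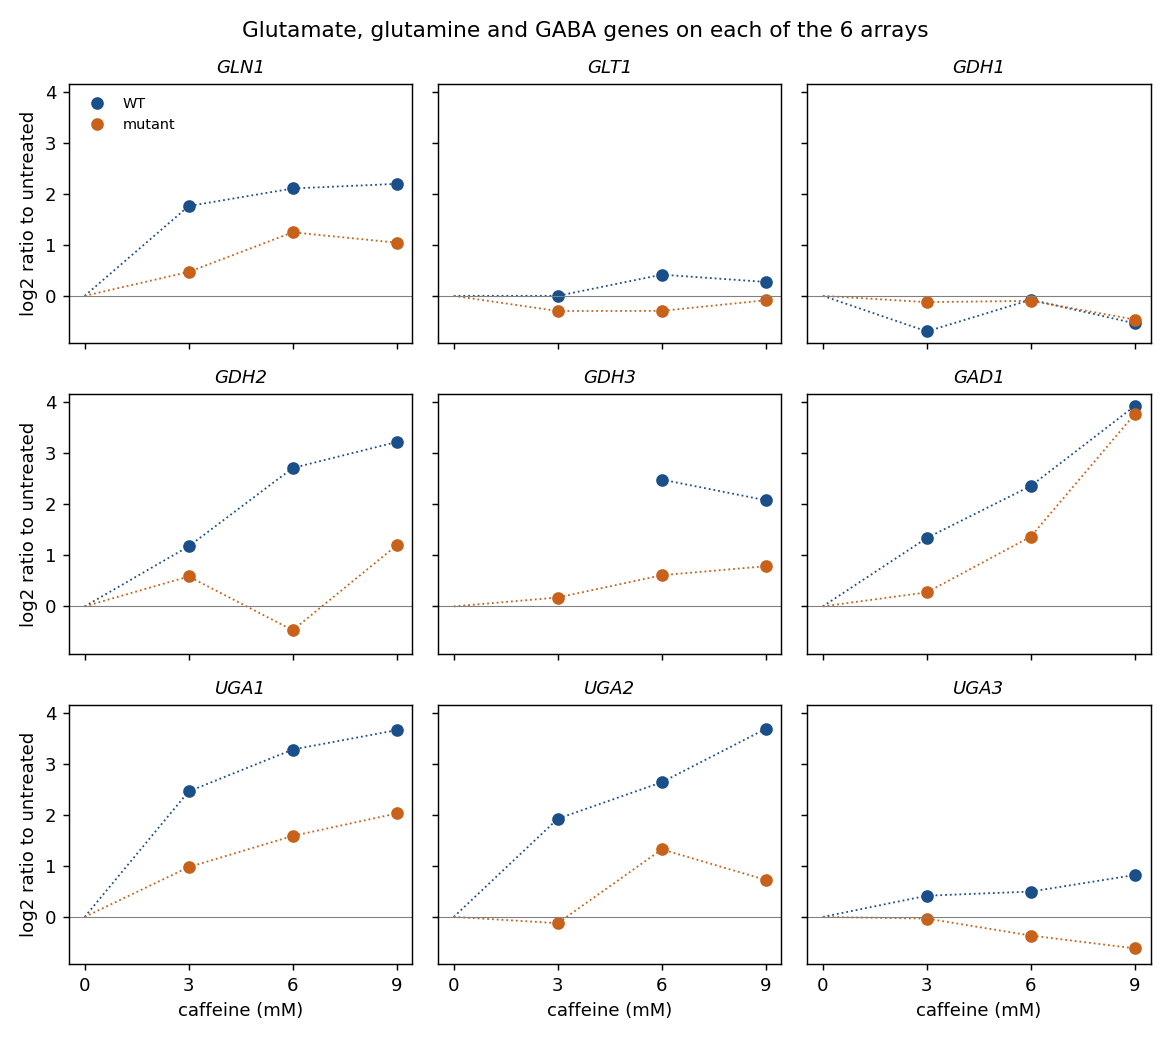
Log2 ratio of caffeine-treated to untreated RNA (vertical axis, centred on the array median) against caffeine dose in mM (horizontal axis) for 9 genes, with 1 point per array, WT in blue and mutant in orange. Dotted lines join the doses and start from 0, which is set by construction at 0 mM; WT GDH3 has no value at 3 mM. WT points of UGA1 and UGA2 lie above the mutant points at every dose, and GAD1 reaches 3.92 in WT and 3.77 in the mutant at 9 mM.

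GLN1, the glutamine synthetase, stood at 1.76, 2.10 and 2.19 in WT and at 0.47, 1.24 and 1.04 in the mutant at 3, 6 and 9 mM. All WT values exceeded all mutant values, and 80.2% of the WT log2 value at 9 mM was already there at 3 mM. GLN1 rose in WT by 0.30 ± 0.05 (SE) per mM (limma adjusted p = 0.000300). In the mutant it rose by 0.14 ± 0.05 (adjusted p = 0.0312), a call that was lost without any single mutant array (adjusted p = 0.0583 to 0.155), on the values as deposited (0.151) and after quantile normalization (0.0744). GLT1, the glutamate synthase that partners it, stood at 0.00, 0.42 and 0.27 in WT and at -0.30, -0.29 and -0.09 in the mutant. Its WT slope was 0.04 ± 0.04 (adjusted p = 0.440) and its mutant slope -0.03 ± 0.04 (adjusted p = 0.601). Neither passed, and the sign of the WT slope turned on the values as deposited (-0.012). The sign of the mutant slope turned when a constant offset per gene was allowed (0.0071).

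GDH1, the main ammonium-fixing dehydrogenase, was the gene with the lowest WT values: -0.70, -0.08 and -0.54 at the rising doses, beside -0.12, -0.10 and -0.46 in the mutant. The genotypes overlapped, and neither slope passed (WT -0.06 ± 0.04, adjusted p = 0.263; mutant -0.04 ± 0.04, adjusted p = 0.442). On the values as deposited the WT slope of GDH1 passed (-0.11, adjusted p = 0.0460). GDH3, the paralogue of GDH1 that encodes the second NADP-dependent enzyme, stood at 2.48 and 2.08 in WT at 6 and 9 mM, and at 0.17, 0.61 and 0.79 in the mutant at 3, 6 and 9 mM. Both WT values lay above all mutant values. In a fit of the 5469 genes with at least 2 values per genotype, where 16.7% of genes rose in WT and 12.2% in the mutant, GDH3 rose in WT by 0.29 ± 0.05 per mM (adjusted p = 0.000507). Its mutant slope of 0.09 ± 0.04 did not pass there (adjusted p = 0.141). The WT slope of GDH3 rests on 2 arrays, and the value was lower at 9 mM than at 6 mM. GDH3 counts as rising in WT since the fitted line starts from 0. GDH1 and GDH3 are close paralogues, and whether their transcripts bound each other's probe was not tested.

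GDH2, which releases ammonium from glutamate, climbed through 1.18, 2.71 and 3.22 in WT, 9.31-fold over the median gene at 9 mM. In the mutant it stood at 0.58, -0.47 and 1.20, below WT at each matched dose, with the mutant 9 mM value just above the WT 3 mM value. The largest step in WT was from 3 to 6 mM (1.53), while the mutant value dropped by 1.05 over the same step. GDH2 rose in WT by 0.39 ± 0.05 per mM (adjusted p = 5.87e-05). The mutant slope was 0.08 ± 0.05 (adjusted p = 0.219) and changed sign without the mutant 9 mM array (-0.023).

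GAD1, which makes GABA from glutamate, had the highest value of these genes on either 9 mM array. It stood at 1.34, 2.36 and 3.92 in WT and at 0.27, 1.37 and 3.77 in the mutant, which is 15.2-fold and 13.6-fold over the median gene at 9 mM. Genotypes were apart at 3 and 6 mM and close at 9 mM, where they lay above 99.5% (WT) and 99.7% (mutant) of genes tested. In WT 34.1% of the 9 mM log2 value was reached at 3 mM, and in the mutant 7.27%. GAD1 rose in both, by 0.42 ± 0.05 per mM in WT (adjusted p = 3.49e-05) and by 0.34 ± 0.05 in the mutant (adjusted p = 0.000626).

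UGA1, the GABA transaminase, stood at 2.46, 3.28 and 3.66 in WT and at 0.97, 1.58 and 2.03 in the mutant. Its lowest WT value exceeded its highest mutant value, and both genotypes climbed at each dose. It had the steepest WT slope of these genes, 0.48 ± 0.05 per mM (adjusted p = 1.96e-05), and it also rose in the mutant, by 0.24 ± 0.05 (adjusted p = 0.00371). UGA2, which oxidises succinate semialdehyde in the last step to succinate, stood at 1.92, 2.64 and 3.68 in WT and at -0.12, 1.32 and 0.72 in the mutant. The values of the genotypes did not overlap, and the mutant peaked at 6 mM. UGA2 rose in WT by 0.43 ± 0.04 per mM (adjusted p = 1.99e-05), and its mutant slope of 0.11 ± 0.04 did not pass (adjusted p = 0.0729).

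UGA3, the activator of the UGA genes, stood at 0.42, 0.50 and 0.82 in WT and at -0.03, -0.37 and -0.62 in the mutant. It lay above the median gene in WT and below it in the mutant at every dose. Neither slope passed (WT 0.09 ± 0.04, adjusted p = 0.0659; mutant -0.06 ± 0.04, adjusted p = 0.207), and on the values as deposited the mutant slope did (-0.12, adjusted p = 0.0172). UGA3 and GLT1 are neighbours on chromosome IV in the RefSeq annotation of assembly R64, with locus tags YDL170W and YDL171C that place them on opposite strands. Side by side at 9 mM, UGA3 stood at 0.82 and GLT1 at 0.27 in WT, and at -0.62 and -0.09 in the mutant.

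The order of the WT slopes was UGA1, UGA2, GAD1, GDH2, GLN1, UGA3, GLT1 and GDH1. The first 4 lay between 0.39 and 0.48 with SEs of 0.04 to 0.05, so neighbours in this order differed by about their error or less; these differences between genes were not tested. When a constant offset per gene, such as a dye bias, was allowed through an intercept shared by all arrays, GAD1 (adjusted p = 0.0166) and UGA2 (0.0456) still passed in WT. GDH2 did not (adjusted p = 0.0622), with a slope of 0.38 per mM close to the 0.39 without the offset. GLN1 (slope 0.16, adjusted p = 0.279) and UGA1 (slope 0.30, adjusted p = 0.0656) did not pass either. In the mutant GAD1 passed (0.0498), and GLN1 (0.984) and UGA1 (0.796) did not. No array had the dyes exchanged. In WT, GLN1 and UGA1 had 80.2% and 67.2% of their 9 mM log2 value at 3 mM already. GDH2, GAD1 and UGA2 had 36.5%, 34.1% and 52.2%. The parts of an offset and of a response that levels off with dose were not tested.

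In mutant cells with caffeine, GLN1, GAD1 and UGA1 rose and the other 5 genes tested did not pass. None fell (0 at an unadjusted p under 0.05, limma). Over all genes, 12.1% rose in the mutant and 15.8% fell. The median slope of the 8 genes was 0.09 per mM, against 0.00 over all genes. Counted without a test at 2-fold over the array median, the genes described here numbered 5 of 8 measured at WT 3 mM, 6 of 9 at WT 6 mM and 6 of 9 at WT 9 mM, where 9.57%, 14.2% and 17.3% of all genes reached that mark. In the mutant 0 of 9 reached it at 3 mM, 4 of 9 at 6 mM and 4 of 9 at 9 mM, against 4.3%, 7.35% and 14.4% of all genes. The mutant genes past the mark at 6 mM were GLN1, GAD1, UGA1 and UGA2, and at 9 mM GDH2 took the place of UGA2.

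**Figure D2:**
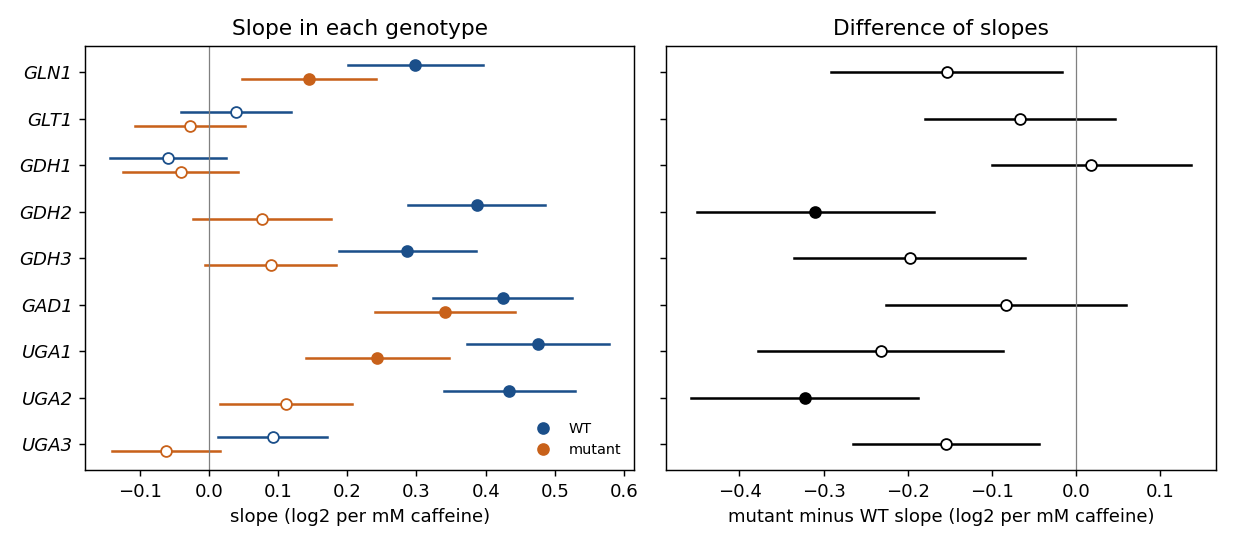
Slope of each gene in log2 units per mM caffeine (left, WT in blue and mutant in orange) and mutant minus WT slope (right), with 95% intervals from limma not adjusted for the number of genes; filled points were called and open points were not. GDH3 comes from the fit of genes with at least 2 values per genotype. The difference is called for GDH2 (-0.31) and UGA2 (-0.32).

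The series asks how far the doubly substituted TOR1 changes the caffeine response. GDH2 and UGA2 had lower slopes in the mutant than in WT, the ammonium-releasing dehydrogenase by -0.31 ± 0.07 per mM (limma adjusted p = 0.0249) and the last enzyme of the GABA branch by -0.32 ± 0.06 (adjusted p = 0.0165). None of the 8 had a higher slope (0 at an unadjusted p under 0.05). Over all genes 4.26% were called for a difference, 2.32% lower and 1.94% higher in the mutant. Mutant minus WT values of GDH2 were -0.59, -3.18 and -2.02 log2 units at 3, 6 and 9 mM, and those of UGA2 were -2.04, -1.31 and -2.96. At 9 mM that made UGA2 7.77-fold and GDH2 4.07-fold higher in WT.

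Both calls were lost in some fits with 1 array fewer, although the slope differences stayed below 0. For GDH2 the difference was -0.28 without the WT 6 mM array (adjusted p = 0.101) and -0.25 with the mutant 6 mM array left out (0.0698), and the call was also lost when the mean of 3 arrays replaced the slope (0.0820). For UGA2 it was -0.32 without the WT 6 mM array, as with all arrays (adjusted p = 0.0751), and -0.27 with the mutant 9 mM array left out (0.0811). After quantile normalization the differences were -0.22 and -0.21 and neither passed (adjusted p = 0.284 and 0.313); no gene at all was then called by limma, with 648 genes at an unadjusted p under 0.05.

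UGA1 lay below WT by nearly the same amount at each dose, with mutant minus WT values of -1.48, -1.69 and -1.63. The difference of its slopes, -0.23 ± 0.07 per mM, did not pass (adjusted p = 0.0685, 95% interval, not adjusted for the number of genes, -0.38 to -0.09). Among the alternative fits it passed with the shared intercept (limma adjusted p = 0.0413) and without the WT 9 mM array (0.0230). It did not pass in the other 12, and after quantile normalization it was -0.11 (limma adjusted p = 0.636). For UGA3 the differences were -0.45, -0.86 and -1.44, widening with dose, and the slopes differed by -0.15 ± 0.05 (adjusted p = 0.105, interval -0.26 to -0.04). For GLN1 they were -1.29, -0.86 and -1.15, with a slope difference of -0.15 ± 0.06 (adjusted p = 0.186, interval -0.29 to -0.02). GDH3, in the wider fit where 2.27% of genes were called lower, differed by -0.20 ± 0.06 (adjusted p = 0.0978, interval -0.33 to -0.06).

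The slope differences of the remaining 3 genes were smaller. GAD1 gave -1.07, -0.99 and -0.15 for mutant minus WT at the rising doses, so the gap was narrowest at 9 mM; its slopes differed by -0.08 ± 0.07 (adjusted p = 0.487, interval -0.23 to 0.06), with the sign turned after quantile normalization (0.0085). GLT1 gave -0.30, -0.71 and -0.36 (slope difference -0.07 ± 0.05, adjusted p = 0.484, interval -0.18 to 0.05). GDH1 gave 0.57, -0.02 and 0.07 (0.02 ± 0.06, adjusted p = 0.875, interval -0.10 to 0.14), and was the sole gene of the 9 with a mutant value above WT at any dose.

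**Figure D3:**
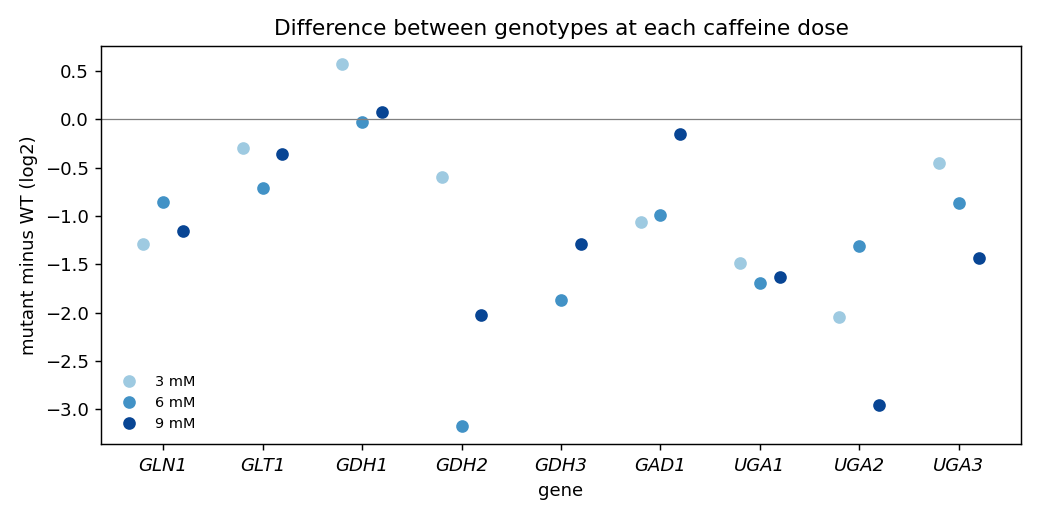
Mutant minus WT log2 ratio (vertical axis) for each of 9 genes at 3, 6 and 9 mM caffeine, darker with dose, 1 array per genotype and dose and no error. All points lie below 0 except GDH1 at 3 mM (0.57) and 9 mM (0.07); UGA1 is nearly level over dose, and UGA3 moves further from 0 at each dose.

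By dose, the mutant value lay below WT for 7 of 8 measured genes at 3 mM, 9 of 9 at 6 mM and 8 of 9 at 9 mM, where 52.2%, 56.2% and 47.9% of all genes did. It was at least 2-fold below for 4, 4 and 6 of them, against 12.2%, 19.3% and 12.6% of all genes. All 3 mutant values lay below all 3 WT values for 5 of the 8 genes with every value (GLN1, GLT1, UGA1, UGA2 and UGA3), against 14.6% of all genes. These counts mix doses and have no test. The 2 genotypes' ratios refer to separate untreated RNA, so a difference may lie in the untreated or in the treated cells.

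Across all 6 arrays, the gene outside the group with the closest values was looked up for each of the 8 complete genes, by the root mean square difference of centred log2 ratios. For GDH2 it was DSD1, the D-serine dehydratase (0.33), for GAD1 PRB1, the vacuolar protease B (0.49), for UGA1 INO1, the inositol phosphate synthase (0.28), and for UGA2 SRY1, a hydroxyaspartate dehydratase (0.53). The closest to GLT1 was ALG1, a mannosyltransferase of glycosylation (0.12). For GLN1 it was YPR078C (0.23), for GDH1 YAR066W (0.11) and for UGA3 YPL071C (0.16). DSD1 stood at 1.25, 3.00 and 3.36 in WT and at 0.36, 0.07 and 0.76 in the mutant, without the drop below 0 that GDH2 had at 6 mM. PRB1 stood at 1.03, 2.12 and 3.18 in WT and at 0.43, 1.28 and 2.95 in the mutant, each time with its highest value at 9 mM, like GAD1.

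Genes that feed or drain these enzymes moved unevenly; the counts below stand beside 17.2% of all genes rising and 16.3% falling in WT, and 12.1% and 15.8% in the mutant. UGA4, the GABA permease, stood at 0.45, 3.49 and 4.26 in WT, and in mutant cells at 0.29, 0.68 and 1.45; it rose in both (adjusted p = 1.49e-05 and 0.0352) and its slope was lower in the mutant (adjusted p = 0.0155), as for UGA2. Among the 6 genes of GABA uptake and of succinate dehydrogenase with the regulator DAL81, 2 rose in WT and 4 did not pass. In the mutant 3 rose, 1 fell (DAL81, named after its values were seen), near the share over all genes, and 2 did not pass. SDH2 and SDH4, subunits of succinate dehydrogenase, reached 1.78 and 0.84 on the WT 9 mM array, and 1.45 and 1.26 on its mutant counterpart, and SDH4 passed in the mutant alone (adjusted p = 0.228 in WT, 0.0479 in the mutant), with no difference called (0.639).

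On the route from proline to glutamate, 1 of 4 genes rose in WT and none was called in the mutant (0 at an unadjusted p under 0.05, limma). PUT1, proline oxidase, stood at 0.26, 2.05 and 2.79 in WT and at -0.59, -0.06 and 0.59 in the mutant, and its slope was lower in the mutant (adjusted p = 0.0295). PUT2, the next dehydrogenase, stood at 0.94 and PUT4, the proline permease, at 1.25 in WT at 9 mM, and neither passed. Of 12 genes tested that supply 2-oxoglutarate, the carbon skeleton of glutamate, 6 rose and none fell in WT (0 at an unadjusted p under 0.05, limma), and 2 rose in the mutant. CIT1, the mitochondrial citrate synthase, reached 2.97 in WT and 2.93 in the mutant at 9 mM. CIT2, the peroxisomal one, was highest in WT at 6 mM (4.58) and stood at 3.62 at 9 mM, beside 2.15 in the mutant. DLD3 went down with dose in WT (3.79, 2.75 and 2.13 at 3, 6 and 9 mM) and stood at 0.14 in the mutant at 9 mM. It counts as rising in WT since the fitted line starts from 0. Of 6 genes tested that use or carry 2-oxoglutarate, 3 rose in WT (KGD2 and LPD1 of the 2-oxoglutarate dehydrogenase complex and ODC1, a mitochondrial carrier), while 3 rose and 2 fell in the mutant. No gene of these last 2 lists was called for a difference in slope by limma, where 4 and 1 had a lower mutant slope at an unadjusted p under 0.05.

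Of 12 genes tested for enzymes that spend glutamine's amide nitrogen, 7 rose and 2 fell in WT, and 3 rose and 3 fell in the mutant. The 2 that fell in WT were near the share over all genes. At 9 mM, GFA1, which makes glucosamine phosphate, stood at 1.36 in WT and 1.95 in the mutant, and TRP3 of tryptophan synthesis at 1.06 and -0.62. In WT both were highest at 3 mM (1.86 and 1.79). GUA1, the GMP synthase, stood at -2.53, -2.96 and -1.22 in WT at 3, 6 and 9 mM. In the mutant it stood at 0.16, -1.49 and -2.94. GUA1 fell in both, with no difference of slopes called (limma adjusted p = 0.962). Both fitted lines start from 0, so this does not show alike responses. From 3 to 9 mM the value of GUA1 went up in WT and down in the mutant. CPA1, a carbamoyl phosphate synthase subunit named after its values were seen, was the 1 gene with a called difference, higher in the mutant by 0.28 per mM. Of 11 transaminases that pass amino groups to or from glutamate, 6 rose and 2 fell in WT, the latter near the share over all genes, and 2 rose in the mutant. BAT2, a branched-chain transaminase, stood at 4.05 and 2.36, ARO9, an aromatic one, at 4.81 and 4.81, and ALT1, the alanine transaminase, at 1.02 and -1.15 at 9 mM. The slope of ALT1 was lower in the mutant (adjusted p = 0.0378), and that of ARG8, named after its values were seen, was higher.

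Of 5 genes tested for first steps that spend glutamate, 1 rose and 1 fell in WT and 1 fell in the mutant, near the shares over all genes. PRO1, glutamate kinase of proline synthesis, fell in both, to -2.18 in WT and -1.25 in the mutant at 9 mM; ARG2, which acetylates glutamate for arginine, rose in WT, and MET7, a folylpolyglutamate synthase, did not pass. Of 7 ammonium and amino acid permeases, 2 rose and 3 fell in WT, and 1 rose and 1 fell in the mutant, the latter near the shares over all genes. GNP1, the glutamine permease, fell to -3.46 and -2.02, DIP5, the glutamate and aspartate permease, stood at 2.63 and 2.07, and GAP1, the general permease, fell to -1.87 in WT. Among 15 regulators 3 rose and 2 fell in WT, near the shares over all genes (17.2% and 16.3%), and 1 rose and 6 fell in the mutant. HAP4, an activator of respiration genes, fell in both (-2.94 and -1.65 at 9 mM), RTG3, an activator of the retrograde response, rose in WT to 1.06, and GAT1, a GATA activator, fell in WT to -1.10. GZF3, a GATA repressor, and GCN4, activator of amino acid synthesis, both named after their values were seen, had lower slopes in the mutant, by -0.33 and -0.27 per mM.

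**Figure D4:**
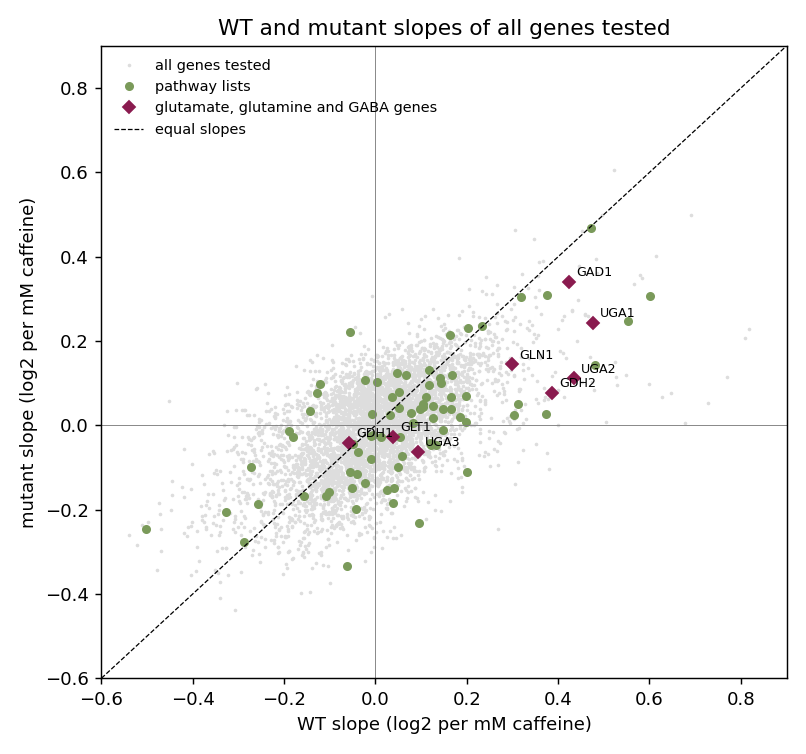
WT slope (horizontal) against mutant slope (vertical), both in log2 units per mM caffeine, for all genes tested (grey), the pathway lists (green) and 8 glutamate, glutamine and GABA genes (diamonds); the dashed line marks equal slopes. GDH2 and UGA2 lie farthest below the line among the diamonds, and GAD1 lies closer to it.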

How the data were processed

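PolyA RNA was hybridised to 6 2-channel spotted arrays, with untreated RNA in Cy3 and caffeine-treated RNA in Cy5, per the labels. The authors deposited log2 ratios: 2 to the power of each value is a ratio with 2 decimals for 100% of values (tolerance 0.0001 on whole hundredths). Background correction, spot filters and normalization are not given in the sources used here. Scanner files were not analysed, so signal over background is unknown and the number of arrays limits the precision.

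Of 6214 probes, 5596 had 1 gene symbol, 0 several and 618 were not listed; all 5596 matched RefSeq symbols of assembly R64. Spots of a gene were averaged and arrays centred on the median of named genes. Slopes on dose without intercept were fitted with limma 3.58.1 in R 4.3.3 (4 residual and 9.69 prior degrees of freedom; 2-sided), and tested on simulated data first. The p-values reflect only the scatter of these arrays around a straight line, possibly technical, and not the spread of untreated RNA.

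The genes and pathway lists were chosen with earlier results of these data known. Named were the 9 genes, up to 3 genes per list with the largest absolute WT slope, and the nearest gene to each of the 8 with a value on all 6 arrays. Alternatives covered centring, quantile normalization, a shared intercept, means, genotypes apart, a robust prior, missing values, single spots, a floor of 0.1 on ratios and leaving out each array. Promoter motifs and sequences were not analysed here.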

Additional observations from a re-analysis of the deposited data

Results flagged for a closer look

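For 2 genes the test of the difference between genotypes passed: the mutant minus WT slope was -0.31 log2 per mM for GDH2 and -0.32 for UGA2 (limma, adjusted p = 0.0249 and 0.0165), with the mutant below WT at 3 of 3 doses for each. UGA3 lay above the array median on all 3 WT arrays and below it on all 3 mutant arrays, though at -0.03 in the mutant at 3 mM. The share of all genes with such signs is not given here. The WT slope of UGA3 exceeded its mutant slope by 0.15 log2 per mM, and that difference did not pass (limma adjusted p = 0.105). On the values as deposited UGA3 lay above 0 on all 3 WT arrays as well, with ratios of 1.08, 1.10 and 1.36 against 0.84, 0.59 and 0.45 in the mutant.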

How the results depend on the processing

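Of 352 recomputed slopes of single genes, 327 kept their direction and their side of the threshold, 17 lost a call, 4 gained one and 4 changed sign. The cause of these changes was not tested. Many of the 327 could not change direction. Leaving out an array of 1 genotype does not alter the slope of the other. The robust prior, wider fit, single spots, floor and genotypes fitted alone changed no slope, only its error or adjusted p. The sign changes were GLT1 in WT on the values as deposited (-0.012), GLT1 in the mutant with a shared intercept (0.0071), the difference of GAD1 after quantile normalization (0.0085) and GDH2 in the mutant without its 9 mM array (-0.023; without 1 array its slope ran from -0.023 to 0.14). With 5 genes called higher in WT, the count stayed at 5 without any 1 array and was 2 with a shared intercept. Of these fits with 1 array fewer, only those without a WT array changed the WT slopes. In WT 1 gene, GDH1, was called lower on the values as deposited. In the mutant 1 gene was called higher with a shared intercept, and 1, UGA3, lower as deposited. For the difference the count of 2 became 0 after quantile normalization (3 at an unadjusted p under 0.05, limma), 1 by means of 3 arrays, and 0 to 3 without 1 array (0 without WT 6 mM, where 4 had an unadjusted p under 0.05; 3 without WT 9 mM; 1 without mutant 6 or 9 mM). Over all genes, 1748 were called in WT, 1455 in the mutant and 222 for the difference; after quantile normalization the counts were 789, 727 and 0 (648 at an unadjusted p under 0.05). The shared intercept gave 144 in WT and 22 in the mutant. Without 1 array the counts ran from 1032 to 1853 in WT, from 584 to 1643 in the mutant and from 19 to 298 for the difference, lowest without the WT 9 mM, mutant 6 mM and WT 6 mM array. Single spots changed nothing but the number of tests, since each of the 9 genes had 1 probe. Genotypes fitted alone give no test of the difference.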
